A study of Mus musculus with 6 samples.

Results

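The insulin-like growth factor (IGF) family genes examined here are the ligand genes Igf1 and Igf2, the receptor genes Igf1r and Igf2r, and the binding protein genes Igfbp2, Igfbp3, Igfbp4, Igfbp5, Igfbp6 and Igfbp7. These 10 genes were taken by name from a count table of 56941 Ensembl gene IDs, each matched 1 ID, and all 10 were among the 17072 genes abundant enough to test. The libraries were made from cells of mouse pup lungs that magnetic beads against CD31, an endothelial adhesion molecule, had pulled out of enzyme-digested tissue. In 3 hyperoxia libraries the pups had breathed 75% oxygen from postnatal day 0 until the lungs were taken on postnatal day 7, and in 3 room air libraries they had stayed in 21% oxygen for the same time. No strain, sex or number of animals per library is given in the sources used here, and the replicates are not said to come from separate animals. P-values therefore reflect only how these libraries varied, which may be technical.

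IGF1 and IGF2 are secreted growth factors that signal through IGF1R, a receptor tyrosine kinase close to the insulin receptor. IGF2R does not signal for growth in the same way. It takes up and degrades IGF2, and as the cation-independent mannose 6-phosphate receptor it also carries newly made acid hydrolases to lysosomes. The binding proteins hold IGFs in the circulation and in the matrix, and release them when proteases cut them, whereas IGFBP7 binds IGFs weakly and is deposited around blood vessels. In the developing lung, IGFs come largely from mesenchymal cells and support the growth of vessels and alveoli.

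Total counts ran from 39808248 to 42343192 in hyperoxia and from 39379793 to 42003353 in room air. The 10 IGF family genes took between 109711 and 115092 counts in each hyperoxia library and between 81588 and 102324 in each room air library. Endothelial genes were abundant, with Pecam1, the gene for CD31, at 2649, 1932 and 2441 CPM (counts scaled to a common library size) in hyperoxia and 3109, 2970 and 2269 CPM in room air. The libraries held other lung cells too. Sftpc, the surfactant gene of alveolar type 2 epithelium, stood at 8652 to 10870 CPM in hyperoxia and 7650 to 12970 CPM in room air. All 9 markers of alveolar type 1 epithelium rose in hyperoxia (edgeR, adjusted p below 0.05), as did 6.77% of all genes tested. The summed level of the 9 markers was 5804 to 7736 CPM in hyperoxia against 2324 to 3271 CPM in room air. Y-linked genes were at or near 0 in hyperoxia 1 and hyperoxia 3 and were expressed in hyperoxia 2 and all 3 room air libraries. Oxygen and the presence of Y-linked reads thus partly coincided. Their parts in the differences between the groups cannot be fully told apart.

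The promoters of 3 genes are printed because their genes were those of the family that passed the test in hyperoxia. Gene starts are those of RefSeq. Bases shortly after the start were found in a GENCODE M21 transcript for Igfbp3 and Igfbp7 but not for Igf2r, whose start is less certain. Each run is RefSeq sequence on build GRCm38.p6, holds the 250 bases before the gene's start and is read 5' to 3' on the gene's strand (minus for all of them), with capitals marking matches on either strand to the GC box GGGCGG and the E-box CACGTG.
Igf2r, chr17:12769707-12769956: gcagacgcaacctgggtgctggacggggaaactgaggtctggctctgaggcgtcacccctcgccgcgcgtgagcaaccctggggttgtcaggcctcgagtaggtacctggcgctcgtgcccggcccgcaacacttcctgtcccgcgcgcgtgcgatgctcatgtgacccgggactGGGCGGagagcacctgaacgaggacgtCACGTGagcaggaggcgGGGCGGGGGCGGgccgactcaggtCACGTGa
Igfbp3, chr11:7213924-7214173: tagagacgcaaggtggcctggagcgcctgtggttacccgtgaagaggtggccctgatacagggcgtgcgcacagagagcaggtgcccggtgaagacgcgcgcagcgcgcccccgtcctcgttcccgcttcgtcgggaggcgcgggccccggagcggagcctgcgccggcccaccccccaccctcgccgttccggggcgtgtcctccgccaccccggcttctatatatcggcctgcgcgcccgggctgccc
Igfbp7, chr5:77408046-77408295: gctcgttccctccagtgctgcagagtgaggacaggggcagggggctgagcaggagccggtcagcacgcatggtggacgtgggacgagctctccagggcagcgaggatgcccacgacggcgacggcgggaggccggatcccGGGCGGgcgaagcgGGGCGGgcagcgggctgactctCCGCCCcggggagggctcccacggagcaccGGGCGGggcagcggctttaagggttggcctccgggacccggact
All of them were rich in CpG dinucleotides, with 27 in Igf2r, 32 in Igfbp3 and 26 in Igfbp7, where the median of 32851 promoters of the same length was 6. The promoters of family genes that were not called ranged widely, that of Igf1r holding 42 and that of Igf1 holding 5. For Igf1r too, bases shortly after the RefSeq start were not found in a GENCODE M21 transcript. The E-box was present 2 times in the Igf2r promoter and 0 times in those of Igfbp3 and Igfbp7. At least 1 E-box occurred in 6.02% of all promoters. The GC box was found 3 times in Igf2r, 4 times in Igfbp7 and 0 times in Igfbp3, and 32.7% of all promoters held at least 1. The TATA box TATAAA, the antioxidant response element TGACNNNGC, the cAMP response element TGACGTCA and the p53 half-site, each searched on both strands like the GC box and E-box, had 0 matches in these 3 windows. No 2 matches in these windows overlapped. The 4 unmatched motifs occurred, in that order, in 12.4%, 10.2%, 1.55% and 7.13% of all promoters.

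Hyperoxia was accompanied by more Igf2r, Igfbp3 and Igfbp7 RNA, while the ligand genes and the signalling receptor gene Igf1r did not pass the test. Of the 10 IGF family genes, 3 rose, 0 fell and 7 did not pass at an adjusted p below 0.05 (edgeR's quasi-likelihood test with Benjamini-Hochberg adjustment). Over all genes tested, 6.77% were called higher in hyperoxia, 4.41% lower and 11.2% in either direction. At an unadjusted p below 0.05, 4 family genes were higher and 2 lower, where 13.5% of all genes were higher and 11.7% lower, 25.2% in all. DESeq2 and limma-voom each called 0 family genes lower. The family's median log2 fold change was 0.31, beside -0.01 over all genes tested. The hyperoxia and room air libraries did not overlap for 3 family genes that were higher and 1 that was lower. Over all genes tested, 16.5% were higher and 14.4% lower without overlap, 30.9% in all.

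**Figure D1:**
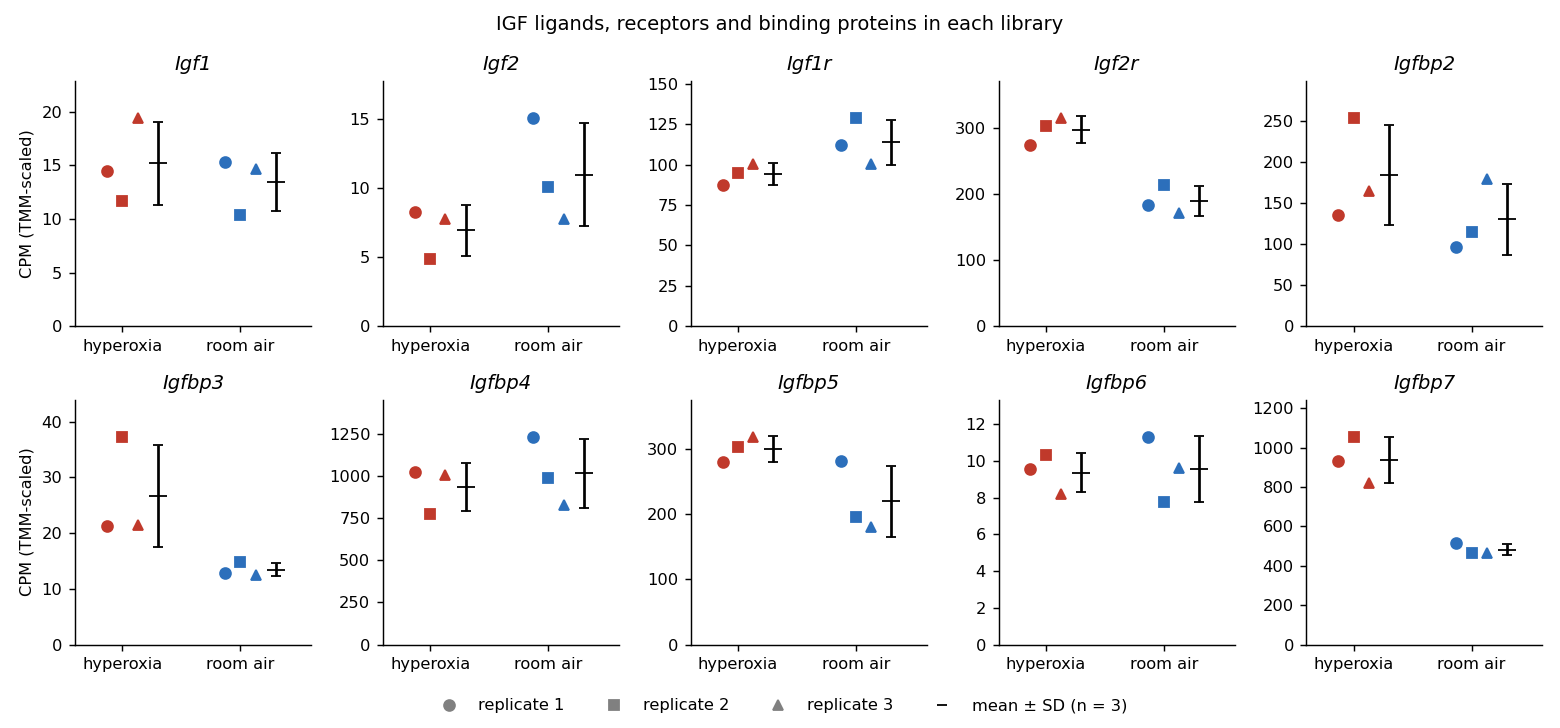
TMM-scaled CPM of the 10 IGF family genes (y axis, linear, from 0) in the 3 hyperoxia and the 3 room air libraries, 1 point per library with the mean and SD beside each group. The hyperoxia points of Igf2r, Igfbp3 and Igfbp7 all lie above the room air points, and those of Igf1r all lie below them.

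The ligand genes were among the least abundant of the family and did not pass the test. Igf1, which encodes the postnatal growth factor induced by growth hormone in liver, was at 14.5, 11.7 and 19.4 CPM in hyperoxia and 15.3, 10.4 and 14.7 CPM in room air. The groups overlapped, with a log2 fold change of 0.18 (95% limits -0.30 to 0.66, adjusted p = 0.669 by edgeR). A change of either direction within those limits is therefore not excluded. Igf2, which encodes the fetal growth factor expressed from the paternal allele, was at 8.26, 4.84 and 7.74 CPM in hyperoxia and 15.1, 10.1 and 7.75 CPM in room air. Room air 1 was the highest library and hyperoxia 2 the lowest, and room air 3 lay just above hyperoxia 3 and below hyperoxia 1. The log2 fold change of Igf2 was -0.66 (95% limits -1.27 to -0.04, adjusted p = 0.173 by edgeR), and Igf2 was called lower in 1 of 16 alternative analyses, that with no filter on low counts (adjusted p = 0.0387, against up to 0.497 in the others). Without room air 1 the log2 fold change of Igf2 was -0.36, and without hyperoxia 2 it was -0.45. In the GENCODE M21 annotation, 62.8% of the exonic bases of Igf2 are shared with the readthrough gene Gm49394 on the same strand, which had 0 counts in all 6 libraries. Whether reads in shared exons were counted is not given in the sources used here, so the level of Igf2 is uncertain.

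Markers of the mesenchymal cells that make IGFs were present but did not pass the test. Of 10 fibroblast markers 0 passed, with a summed level of 1400 to 1907 CPM in hyperoxia and 1307 to 1503 CPM in room air, Fn1 being the most abundant. The groups did not overlap for Fn1, which was higher in hyperoxia (log2 fold change 0.3, adjusted p = 0.192 by edgeR). Nor did they for Pdgfra, which was lower (log2 fold change -0.75, adjusted p = 0.0803 by edgeR). Over all genes tested, 11.2% were called in either direction and 30.9% did not overlap. Of 10 smooth muscle and pericyte markers 0 passed as well, and their sum was 267.9 to 559.2 CPM in hyperoxia and 295 to 402.3 CPM in room air, with Acta2 the most abundant. Tagln was below 1 CPM in every library, and 67.9% of its exonic bases overlap other genes in M21, so its level is uncertain. The share of the ligand RNA that came from such cells was not tested. In these bulk libraries, fewer cells of a type and less RNA per cell cannot be told apart.

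Of the receptor genes, Igf2r rose and Igf1r did not pass the test. Igf2r (ENSMUSG00000023830) was at 274, 302 and 314 CPM in hyperoxia and 182, 214 and 171 CPM in room air. Every hyperoxia library was above every room air library, and the gene rose by a log2 fold change of 0.65 (SE 0.12, 95% limits 0.38 to 0.92, adjusted p = 0.00726 by edgeR). Igf1r was at 87.2, 94.9 and 100.3 CPM in hyperoxia and 112, 129 and 100.4 CPM in room air. The groups did not overlap, but hyperoxia 3 and room air 3 were nearly equal, and Igf1r did not pass (log2 fold change -0.27, 95% limits -0.53 to -0.01, adjusted p = 0.178 by edgeR). Insr, the gene for the insulin receptor, which can pair with IGF1R in hybrid receptors, was at 86.6, 93.2 and 100.7 CPM in hyperoxia and 82.5, 90.6 and 73.2 CPM in room air (log2 fold change 0.19, adjusted p = 0.343 by edgeR).

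Ratios between receptor genes were tight within each group. Per exonic length, the level of Igf2r over that of Igf1r was 5.67, 5.74 and 5.65 in hyperoxia and 2.93, 3 and 3.08 in room air. The ratio of Insr to Igf1r per length was 1.21, 1.20 and 1.23 in hyperoxia and 0.898, 0.860 and 0.891 in room air. These ratios were formed after the values of the genes were seen and are given without a test.

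**Figure D2:**
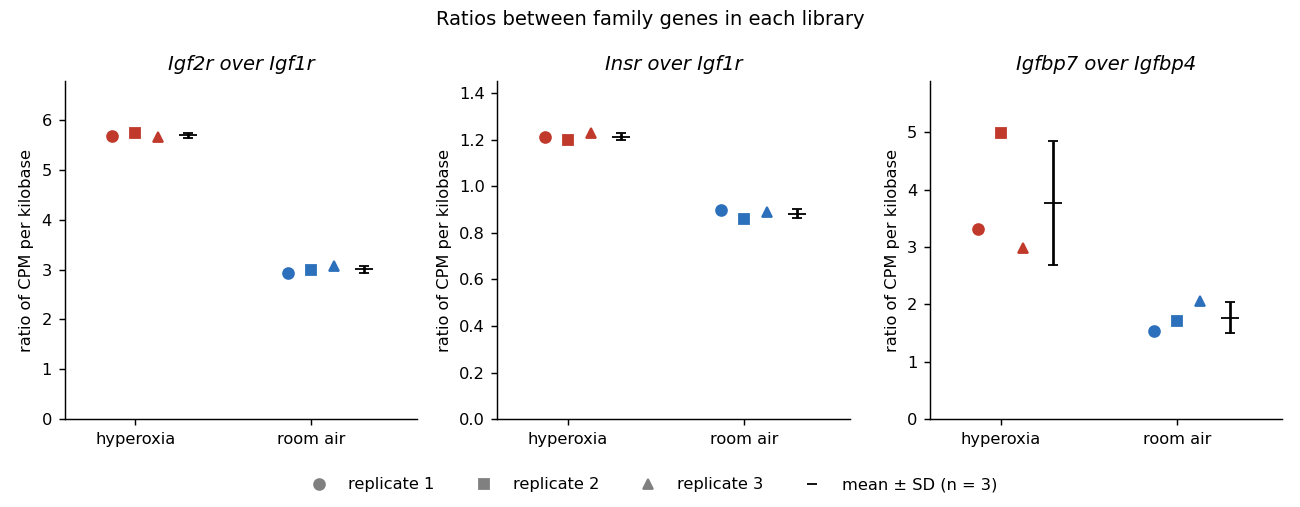
Ratio of CPM per kilobase (y axis, linear, from 0) between pairs of IGF family and insulin receptor genes in each hyperoxia and room air library, with the mean and SD beside each group. The Igf2r to Igf1r ratio lies between 5.65 and 5.74 in hyperoxia and between 2.93 and 3.08 in room air, and the Igfbp7 to Igfbp4 ratio spreads more widely in hyperoxia.

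The binding protein genes Igfbp7 and Igfbp3 rose, and the other 4 did not pass the test. Igfbp7 (ENSMUSG00000036256), whose protein is laid down in the walls of small vessels, was at 933, 1055 and 823 CPM in hyperoxia and 516, 465 and 467 CPM in room air. The lowest hyperoxia library was well above the highest room air library, and the log2 fold change was 0.96 (SE 0.14, 95% limits 0.66 to 1.26, adjusted p = 0.00178 by edgeR), a 1.94-fold higher level. In M21, 7.03% of the exonic bases of Igfbp7 overlap Polr2b on the opposite strand, which had 15891 counts over the 6 libraries. Igfbp3 (ENSMUSG00000020427), whose protein is the main IGF carrier in serum and whose gene is a known target of p53, was at 21.3, 37.2 and 21.5 CPM in hyperoxia and 12.9, 14.8 and 12.5 CPM in room air. The groups did not overlap, and Igfbp3 rose 1.99-fold (log2 fold change 0.99, SE 0.21, adjusted p = 0.0140 by edgeR).

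Hyperoxia 2 was far above the other hyperoxia libraries for Igfbp3, and it was the only hyperoxia library that expressed Y-linked genes. Without hyperoxia 2 the log2 fold change of Igfbp3 was 0.68 (adjusted p = 0.0208 by edgeR), and without both hyperoxia 2 and room air 3 it was 0.62 (adjusted p = 0.0398), a comparison added after the data were seen. The call was lost without room air 1 (log2 fold change 0.96, adjusted p = 0.0538 by edgeR), the highest adjusted p among 16 alternatives, of which the lowest was 1.52e-07. Igf2r and Igfbp7 were called in all 16 of these alternatives to the scaling, filter, test, design or set of libraries, with log2 fold changes of 0.56 to 0.74 for Igf2r and 0.83 to 1.13 for Igfbp7. Their highest adjusted p was 0.0446 for Igf2r and 0.0116 for Igfbp7.

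**Figure D3:**
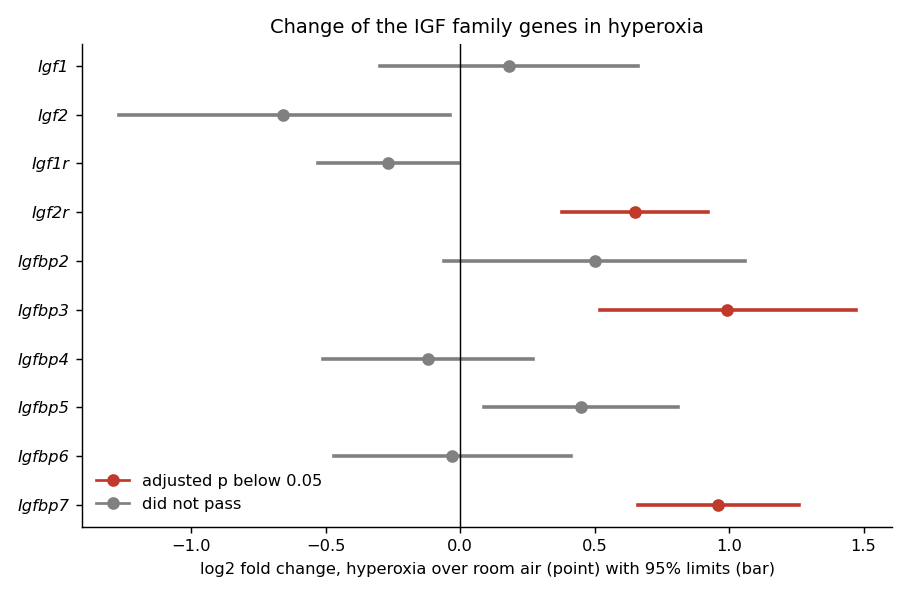
Log2 fold change of each IGF family gene, hyperoxia over room air (x axis), as a point with its approximate 95% limits as a bar, in red where the adjusted p was below 0.05. Igf2r (0.65), Igfbp3 (0.99) and Igfbp7 (0.96) are the red points, and the limits of Igf1, Igfbp2, Igfbp4 and Igfbp6 span 0.

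Igfbp2 and Igfbp5 had positive log2 fold changes and did not pass. Igfbp2, a binding protein gene that mature alveolar type 1 cells express, was at 135, 253 and 165 CPM in hyperoxia and 96.7, 115 and 179 CPM in room air. Room air 3 lay above hyperoxia 1 and hyperoxia 3, and the log2 fold change was 0.50 (95% limits -0.06 to 1.06, adjusted p = 0.251 by edgeR). In both groups the libraries had the same order for Igfbp2 as for the summed alveolar type 1 markers, which were at 5804, 7736 and 5900 CPM in hyperoxia and 2324, 2677 and 3271 CPM in room air. The part of those cells in the Igfbp2 level was not tested. Single libraries moved the log2 fold change of Igfbp2, which was 0.21 without hyperoxia 2 (adjusted p = 0.670 by edgeR) and 0.80 without room air 3 (adjusted p = 0.0536). Igfbp2 was called higher with no filter on low counts (adjusted p = 0.0396 by edgeR) and without both hyperoxia 2 and room air 3 (log2 fold change 0.49, adjusted p = 0.0454). Its adjusted p over the 16 alternatives ran from 0.0396 to 0.670.

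Igfbp5, the most conserved binding protein gene of the family and one that mural and mesenchymal cells express, was at 279, 302 and 318 CPM in hyperoxia and 282, 196 and 180 CPM in room air. Room air 1 alone reached the hyperoxia range. The log2 fold change was 0.45 (95% limits 0.09 to 0.81, adjusted p = 0.109 by edgeR), and without room air 1 it was 0.66 (adjusted p = 0.0165 by edgeR), while over the 16 alternatives the adjusted p ran from 0.0134 to 0.307. Igfbp4, an inhibitor of IGF action that is cleaved by the protease PAPP-A, was at 1027, 772 and 1009 CPM in hyperoxia and 1233, 988 and 827 CPM in room air. The groups overlapped throughout, with a log2 fold change of -0.12 (95% limits -0.51 to 0.27, adjusted p = 0.728 by edgeR) that turned to 0.04 without room air 1 and to 0.0042 without hyperoxia 2. Igfbp6, whose protein prefers IGF2 over IGF1, was at 9.57, 10.3 and 8.20 CPM in hyperoxia and 11.3, 7.75 and 9.63 CPM in room air. Its log2 fold change of -0.03 had 95% limits of -0.47 to 0.41 (adjusted p = 0.941 by edgeR), and it was 0.10 without room air 1 and 0.04 without hyperoxia 3.

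Per exonic length, each binding protein gene had a higher mean level than either ligand gene as counted, with Igfbp3 in room air the closest to them. The place of Igf2 is uncertain. Of its exonic bases, 62.8% are shared with Gm49394, and reads there may not have been counted. In CPM per kilobase, hyperoxia libraries had means of 775 for Igfbp7, 212 for Igfbp4, 99.9 for Igfbp2, 49.9 for Igfbp5 and 31.9 for Igf2r. The lower part of that order in hyperoxia was Igfbp3 at 8.53, Igfbp6 at 8.42, Igf1r at 5.61, Igf1 at 1.54 and Igf2 at 1.21 CPM per kilobase. In room air the means were 399 for Igfbp7, 230 for Igfbp4, 70.5 for Igfbp2, 36.5 for Igfbp5 and 20.3 for Igf2r. Below them in room air stood Igfbp6 at 8.61, Igf1r at 6.77, Igfbp3 at 4.28, Igf2 at 1.91 and Igf1 at 1.36 CPM per kilobase. The order of the 5 most abundant genes was thus the same in both groups, with no overlap between neighbours. Igfbp3 stood above Igf1r in every hyperoxia library and below it in every room air library. The neighbours whose ranges overlapped were Igfbp3 and Igfbp6 and the ligand genes in hyperoxia, and Igfbp6 and Igf1r and the ligand genes in room air.

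The summed level of the 6 binding protein genes was 1139, 1256 and 1065 CPM per kilobase in hyperoxia and 819.1, 715.1 and 712.8 CPM per kilobase in room air. Igfbp7 made up 67.7%, 69.5% and 63.9% of that sum in hyperoxia and 52.1%, 53.8% and 54.1% in room air. Igfbp4 made up 20.4%, 13.9% and 21.4% in hyperoxia and 34.1%, 31.3% and 26.3% in room air. Neither share overlapped between the groups, nor did that of Igfbp6 (mean 0.728% in hyperoxia and 1.14% in room air), whereas those of Igfbp2 (6.43% to 10.9% in hyperoxia, 6.39% to 13.6% in room air) and Igfbp5 (4.01% to 4.97% in hyperoxia, 4.21% to 5.73% in room air) did. Igfbp3 was at most 0.947% of the sum in hyperoxia and 0.660% in room air. The ratio of Igfbp7 to Igfbp4 per length was 3.32, 4.99 and 2.98 in hyperoxia and 1.53, 1.72 and 2.06 in room air. The sums and shares are descriptions without a test, and shares of 1 sum are not independent of each other.

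**Figure D4:**
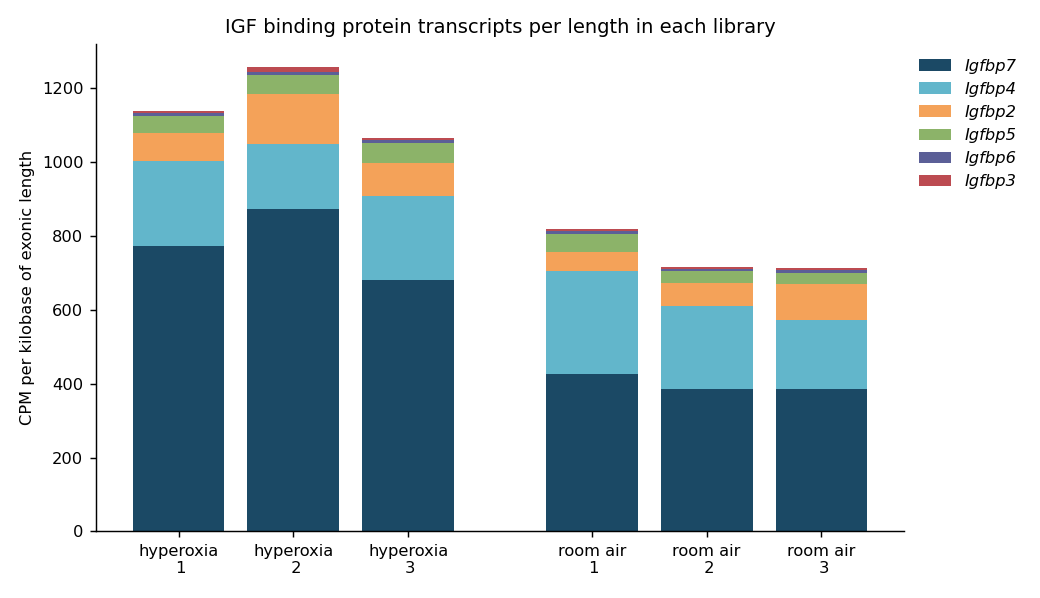
Stacked CPM per kilobase of exonic length (y axis, linear, from 0) of the 6 binding protein genes in each hyperoxia and room air library, 1 bar per library. Igfbp7 fills 63.9% to 69.5% of the bar in hyperoxia and 52.1% to 54.1% in room air, and Igfbp3 and Igfbp6 are barely visible at this scale.

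Markers of endothelial subtypes also differed between the groups. Among all genes tested, 6.77% were called higher in hyperoxia and 4.41% lower. Of 8 venous markers, 4 rose and 0 fell, with a sum of 3485 to 4521 CPM in hyperoxia against 2019 to 3304 CPM in room air. Vwf, the most abundant venous marker, averaged 3504 CPM in hyperoxia and 2409 CPM in room air. It did not pass (log2 fold change 0.54, adjusted p = 0.141 by edgeR). Of 8 lymphatic markers, 3 rose and 0 fell, with a sum of 2903 to 3411 CPM in hyperoxia against 1551 to 2016 CPM in room air. Lyve1, the most abundant and 1 of the 3 that rose, averaged 1986 CPM in hyperoxia and 781 CPM in room air. Reln (log2 fold change 0.80, adjusted p = 0.00483 by edgeR) and Pdpn (0.90, adjusted p = 0.00755 by edgeR) rose too. In both groups the libraries had the same order for Pdpn as for the summed alveolar type 1 markers. The part of alveolar type 1 cells in the Pdpn level was not tested. Flt4 and Ccl21a were among the 5 that did not pass, with log2 fold changes of 0.01 each. Of 8 arterial markers, 0 rose and 4 fell, and their sum was 1743 to 2173 CPM in hyperoxia against 2653 to 4224 CPM in room air. Of 8 general capillary markers, 0 rose and 4 fell, with a sum of 3502 to 4791 CPM in hyperoxia and 4384 to 6117 CPM in room air, and of 8 aerocyte markers, 3 rose and 1 fell, with a sum of 3015 to 3331 CPM in hyperoxia and 2167 to 2422 CPM in room air. Of 12 pan-endothelial markers, 0 rose and 1 fell, and their sum was 11670 to 16010 CPM in hyperoxia and 13860 to 19160 CPM in room air. The part of these shifts, and of the rise of the alveolar type 1 markers, in the levels of Igf2r, Igfbp3 and Igfbp7 was not tested.

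Among other cells that could be carried along, 2 of 12 macrophage and monocyte markers rose and 1 fell, beside 6.77% and 4.41% of all genes tested. The sum of the 12 markers was 838.5 to 1038 CPM in hyperoxia and 955.5 to 1620 CPM in room air. Most of it was Lyz2, which is also on the alveolar type 2 list. Lyz2 was at 805, 757 and 632 CPM in hyperoxia and 901, 818.5 and 1392 CPM in room air. The sum therefore does not show how the other macrophage markers moved. Of 8 mesothelial markers, 2 rose, with a sum of 229.8 to 325.5 CPM in hyperoxia and 93.39 to 118.4 CPM in room air. The mesothelial genes that rose were Msln and Krt19, while the log2 fold changes of Upk3b (-0.95, adjusted p = 0.117 by edgeR) and Lrrn4 (-1.66, adjusted p = 0.121) were negative. Of 8 alveolar type 2 markers 0 passed, with a sum of 14450 to 17440 CPM in hyperoxia and 13020 to 20510 CPM in room air.

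Most genes listed as acting around IGFs outside the cell did not pass the test. The list also holds the growth hormone receptor gene Ghr and the intracellular signalling genes Socs2, Stat5a and Stat5b, so its counts cover those too. Of 18 such genes on the list, 16 could be tested, 1 rose, 0 fell and 15 missed the threshold, near the 6.77% called higher over all genes. Their median log2 fold change was 0.20. At an unadjusted p below 0.05, 3 were higher and 1 lower, beside 25.2% of all genes in either direction, and DESeq2 called 1 lower and limma-voom 0. The gene that rose was Ctsd, for the lysosomal protease cathepsin D, which reaches lysosomes by way of mannose 6-phosphate receptors. It was at 361, 388 and 331 CPM in hyperoxia and 236, 189.9 and 220.2 CPM in room air (log2 fold change 0.74, SE 0.13, adjusted p = 0.00401 by edgeR). In M21, 34.4% of its exonic bases are shared with Gm49369 on the same strand, which had 0 counts. Pappa, for the protease that cuts IGFBP4, was at 0.800, 2.2 and 0.889 CPM in hyperoxia and 0.557, 1.12 and 0.507 CPM in room air (adjusted p = 0.412 by edgeR). Stc2, for stanniocalcin-2, an inhibitor of PAPP-A, was at 1.28, 3.63 and 1.52 CPM in hyperoxia and 1.11, 1.53 and 1.71 CPM in room air (adjusted p = 0.488). Htra1, for a serine protease that cleaves IGF binding proteins, averaged 99.1 ± 18.0 CPM in hyperoxia and 98.6 ± 24.1 CPM in room air (SD, n = 3 each; log2 fold change 0.01, 95% limits -0.39 to 0.40, adjusted p = 0.983 by edgeR). Igfbp1, a binding protein gene of the liver, had 0 counts in every library, which allows up to 0.076 CPM, and Igfbpl1 had at most 4 counts in any library. The floor covers counting error only.

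Downstream of the receptors, most genes of the insulin and IGF pathway did not pass. Of 26 genes, all tested, 1 rose, 0 fell and 25 missed the threshold, where 6.77% of all genes were called higher and 4.41% lower. Their median log2 fold change was 0.04. At an unadjusted p below 0.05, 5 were higher and 2 lower, beside 25.2% of all genes in either direction, and DESeq2 called 1 lower and limma-voom 0. The gene that rose was Akt2, for the kinase isoform that insulin uses to drive glucose uptake, at 85.9, 92.1 and 85.1 CPM in hyperoxia and 59.6, 59.8 and 65.2 CPM in room air (log2 fold change 0.51, SE 0.10, adjusted p = 0.00806 by edgeR). Akt1, for the most widely expressed isoform, did not pass (log2 fold change 0.00, 95% limits -0.30 to 0.30, adjusted p = 0.995 by edgeR). The adaptor genes Irs1 and Irs2, which link the receptors to phosphoinositide 3-kinase, had positive log2 fold changes that did not pass. Irs1 was at 21.6, 32.5 and 27.9 CPM in hyperoxia and 16.4, 20.1 and 21.2 CPM in room air (log2 fold change 0.51, adjusted p = 0.0834 by edgeR). Irs2 was at 28.7, 57.3 and 32.5 CPM in hyperoxia and 13.1, 25.5 and 28.2 CPM in room air (log2 fold change 0.83, adjusted p = 0.120 by edgeR). Groups were separate for Irs1 and Irs2, although hyperoxia 1 lay only just above room air 3 for each. Beside them, 30.9% of all genes tested did not overlap. Like Igf2 and Igf2r, the receptor adaptor gene Grb10 is imprinted, and it was at 186, 147 and 214 CPM in hyperoxia and 265, 246 and 219.5 CPM in room air (log2 fold change -0.42, adjusted p = 0.0983 by edgeR). Its groups did not overlap either, with hyperoxia lower.

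**Figure D5:**
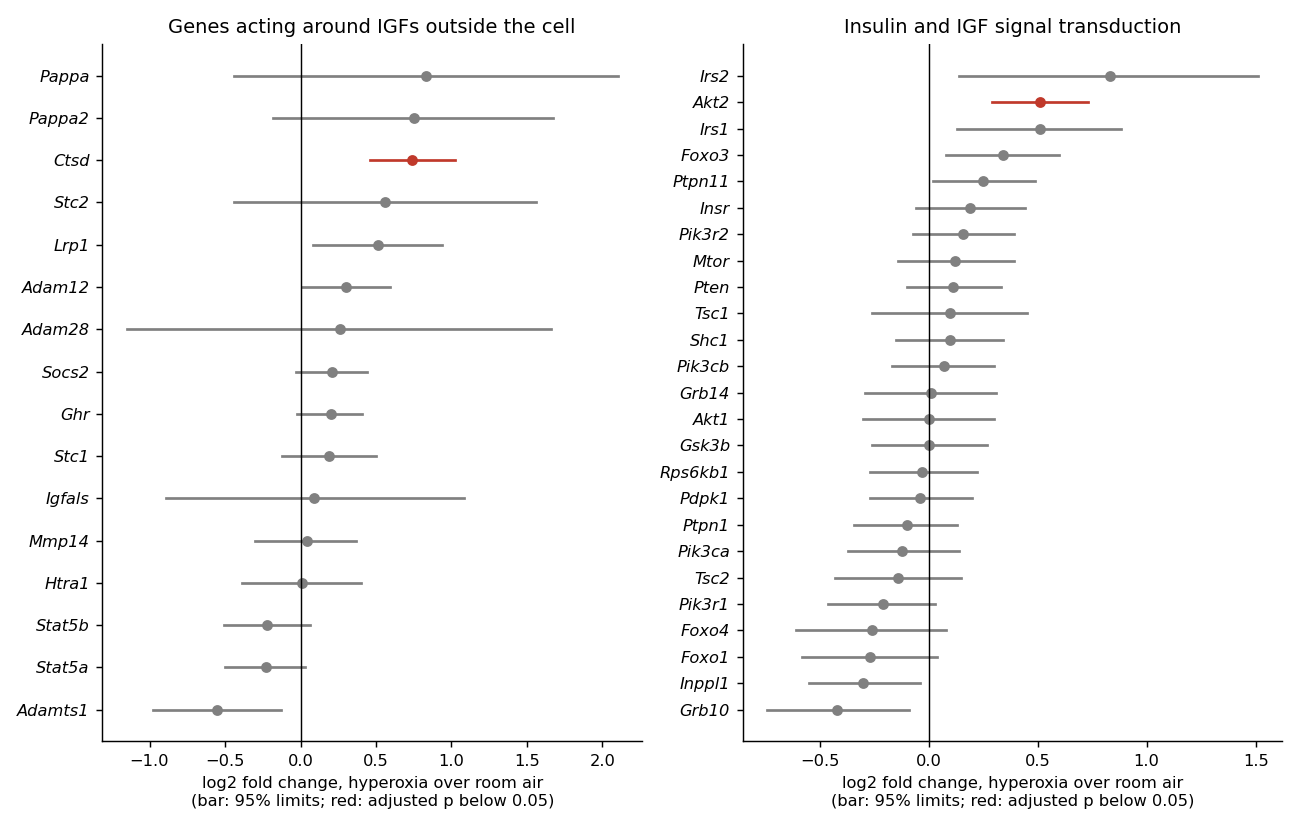
Log2 fold change, hyperoxia over room air (x axis), with 95% limits, in red where the adjusted p was below 0.05. Left, the 16 tested genes listed as acting around IGFs outside the cell, with Ghr, Socs2, Stat5a and Stat5b among them. Right, 25 of the 26 insulin and IGF signalling genes. Ctsd (0.74) and Akt2 (0.51) are the red points.

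For each family gene that rose, the genes nearest to it in gene-centred log2 CPM over the 6 libraries were sought among genes with a mean of at least 5 CPM. Nearest to Igfbp7 were Htatip2 (root mean square difference 0.033 log2 units) and Lrrc75a (0.055). Nearest to Igf2r were Angptl4 (0.039), for a secreted inhibitor of lipoprotein lipase, and Ppp3ca (0.040), for a catalytic subunit of calcineurin. Nearest to Igfbp3 were Slc35g1 (0.095) and Sh3d21 (0.098), farther from it than the nearest genes of Igfbp7 and Igf2r were from theirs. Over 6 libraries and so many candidate genes, such closeness is only a description.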

How the data were processed

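RNA was measured in 6 libraries of CD31-selected lung cells, 3 from hyperoxia and 3 from room air, grouped by their titles. The deposited values were raw counts per Ensembl gene ID. Per the submitters' processing notes, the tools were Subread 2.0.6, featureCounts, HISAT2 2.2.1 and DESeq2 and the build was GRCm39, with no roles named. The annotation release, strand setting and handling of multimapping or shared reads: not given in the sources used here. Reads of overlapping genes are therefore uncertain.

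Symbols matched 51948 of 56941 IDs. Computation used DESeq2 1.42.0, limma 3.58.1 and edgeR 4.0.16 in R 4.3.3. filterByExpr (minimum count 10, minimum total 15) chose the genes to test. TMM factors were 0.975 to 1.04. The main test was edgeR's quasi-likelihood test (robust fit, no covariate). P-values were adjusted over all 17072 genes tested by Benjamini and Hochberg, and genes below 0.05 were called. Levels are TMM-scaled CPM. Standard errors were computed as the absolute log2 fold change divided by the root of the F statistic, and the 95% limits are approximate. Lengths and exon overlaps came from GENCODE M21 on GRCm38, so levels per length are approximate. Within-group pairs of libraries had 15.2 or more chi-square units per degree of freedom, far beyond sampling noise, and all were kept as separate samples.

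The genes, lists and tests were chosen with earlier results of these data known. The naming rule took all 10 family genes, called members of the pathway lists by size, Insr, Irs1, Irs2, Pappa, Stc2 and Htra1, and the 2 nearest genes of each called member. Akt1, Grb10, Lrp1, Adamts1, Igfbp1, Igfbpl1 and individual cell markers other than the most abundant were chosen after their values were seen. In a simulation with 200 changed genes among 16672, drawn from the observed means, the test found 78% of those changed by 1 log2 unit and 93% of those changed by 2, and 11 of its 182 calls were false. Alternatives were other scalings, filters, tests and thresholds, each library left out, replicate number as a block, the presence of Y-linked reads as a term, and, chosen after seeing the data, hyperoxia 2 and room air 3 left out together. The values of 1 gene of the signalling list are not reported here.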

Additional observations from a re-analysis of the deposited data

How the results depend on the processing

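The count of IGF family genes called higher in hyperoxia was 3 in each of the 6 fits that left out 1 library (without room air 1, Igfbp5 was called and Igfbp3 was not), with the scalings tried and with DESeq2 and limma-voom. With no filter on low counts, 5 family genes were called higher (adding Igfbp2 and Igfbp5) and 1 lower (Igf2), 2 extracellular genes higher and 1 lower, and 2 signalling genes higher and 1 lower. DESeq2 called 1 extracellular gene lower, 2 signalling genes higher and 1 lower. With the presence of Y-linked reads as a term, hyperoxia 2 alone is set against room air, since the other hyperoxia libraries lack such reads, so those values rest on 1 library. In that fit 3 extracellular genes and 3 signalling genes were higher and 2 signalling genes lower, the log2 fold changes turned to -0.20 for Igf1 and 0.11 for Igfbp6, that of Igfbp3 was 1.47, and Igfbp2 was called (log2 fold change 0.96). At an adjusted p below 0.1, 1 extracellular gene was lower, 3 signalling genes higher and 1 lower, and at 0.01 the genes called overall numbered 789, 2 of them family genes (Igfbp3 lost). Without hyperoxia 2 and room air 3 together, 2 extracellular genes were higher. The cause of these differences was not tested.

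Leaving out 1 library each gave 1057 (without room air 2) to 1844 genes called, with 1143 without hyperoxia 3, beside 1909 with all 6. It gave 1 to 2 extracellular genes higher (Lrp1 added without room air 3), 0 to 1 lower (Adamts1 without room air 1) and 1 to 2 signalling genes higher (Irs1 added without hyperoxia 1). Log2 fold changes then ran from -0.85 to -0.36 for Igf2, -0.05 to 0.33 for Igf1, -0.25 to 0.04 for Igfbp4 and -0.16 to 0.10 for Igfbp6. With the replicate block, 2 signalling genes were higher (Irs2 added), and no call of a family gene changed. Libraries with the same number did not deviate together (correlations 0.18, -0.09 and -0.17), and hyperoxia 2 correlated best with room air 3 (0.26), so the numbers do not pair the libraries. Among the named genes that were called, counts were lowest for Htra4, at 34 to 45 in hyperoxia and 6 to 10 in room air.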

Other observations

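Since Igf2r also sorts lysosomal enzymes and Ctsd rose with it, a list of 28 lysosomal hydrolases and one of 7 genes of mannose 6-phosphate sorting were drawn up after those values were seen. Of the 28 hydrolase genes, 13 rose, Ctsd among them, and 0 fell (edgeR, adjusted p below 0.05). Over all genes tested, 6.77% were called higher and 4.41% lower. The median log2 fold change of the 28 was 0.37. At an unadjusted p below 0.05, 17 of the 28 passed in either direction, beside 25.2% of all genes tested. DESeq2 called 14 higher and 0 lower. The count was 5 to 9 with 1 library left out (5 without room air 2, 6 without hyperoxia 1, 7 without hyperoxia 2, 7 without hyperoxia 3, 8 without room air 1 and 9 without room air 3) and 8 with the replicate block. It was 7 without hyperoxia 2 and room air 3 together. Besides Ctsd, the protease gene Lgmn averaged 157.7 ± 4.07 CPM in hyperoxia and 107.2 ± 1.15 CPM in room air (SD, n = 3 each; log2 fold change 0.56, adjusted p = 0.00441 by edgeR). Asah1, for acid ceramidase, averaged 171.3 ± 27.2 CPM in hyperoxia and 100.9 ± 12.1 CPM in room air (log2 fold change 0.76, adjusted p = 0.00594 by edgeR). Tpp1, for a tripeptidyl peptidase, averaged 198.5 ± 6.89 CPM in hyperoxia and 141.9 ± 2.81 CPM in room air (log2 fold change 0.48, adjusted p = 0.0111 by edgeR). M6pr, for the smaller mannose 6-phosphate receptor, was at 125.5 ± 4.31 CPM in hyperoxia and 129.0 ± 5.08 CPM in room air (log2 fold change -0.04, adjusted p = 0.847). Of the 7 sorting genes, 1 rose (Gnptab, log2 fold change 0.44, adjusted p = 0.0439 by edgeR) and 1 fell (Gga3, -0.65, adjusted p = 0.0126). Beside them, 6.77% of all genes tested were called higher and 4.41% lower. Gnptab did not pass without hyperoxia 2, hyperoxia 3, room air 1 or room air 2, nor with the replicate block, upper-quartile scaling, scaling by library size only or without hyperoxia 2 and room air 3 together. Gga3 did not pass without room air 2. The 9 alveolar type 1 markers rose in the same libraries, and their part in the hydrolase counts was not tested.

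Of 12 other genes whose proteins carry an IGF binding protein domain, listed after the family's values were seen, 11 could be tested. Of these, 2 rose and 0 fell by edgeR, where 6.77% of all genes tested were called higher and 4.41% lower. DESeq2 called 3 of the 11 higher. At an unadjusted p below 0.05, 4 of the 11 passed in either direction, beside 25.2% of all genes tested. Ccn1, for a matrix protein induced early after stress, was at 558.6 ± 166 CPM in hyperoxia and 270.5 ± 69.9 CPM in room air (SD, n = 3 each; log2 fold change 1.05, SE 0.23, adjusted p = 0.0163 by edgeR). Htra4, a serine protease gene, was at 0.969 ± 0.161 CPM in hyperoxia and 0.188 ± 0.0474 CPM in room air (log2 fold change 2.34, adjusted p = 0.0322 by edgeR). With 1 library left out, Htra4 was called only without hyperoxia 2, and it was also lost with the replicate block, with a filter of 1 CPM in 3 libraries and without hyperoxia 2 and room air 3 together. Ccn1 was lost without room air 1 and without hyperoxia 2 and room air 3 together.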
